A study of Drosophila melanogaster with 2 samples.

Results

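Of the 7329 Fer1-eGFP peaks that passed the authors' reproducibility threshold in Drosophila melanogaster embryos, 926 (12.6%) had their summit more than 200 and at most 1000 bp upstream of a protein-coding gene's start. The members were chosen by position alone: the nearest protein-coding transcription start site (TSS) lay over 200 and up to 1000 bp away, and the summit was upstream of it by the strand of the gene. The series holds 1 group of 2 biological replicates, of the strain Fer1-GFP, in which a transgene expresses Fer1 with eGFP fused to its C-terminus in whole animals of mixed sex. Embryos 6 to 24 h old were used, chromatin was sonicated to 200 to 800 bp, and anti-GFP antibody precipitated the tagged protein with its DNA, which was sequenced (ChIP-seq). All values therefore come from tagged flies. The labels name a control experiment that is not analysed here, and they do not say whether the endogenous Fer1 gene was intact. The peak lists carry no read totals, so the sequencing depth is unknown.

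A gene's start is served by a core promoter, where the transcription machinery assembles, and by regulatory DNA farther out, where sequence-specific factors bind. Fer1 belongs to the basic helix-loop-helix (bHLH) family and is a relative of PTF1A, a mammalian regulator of pancreas and neurons. Dimers of such proteins recognise the E-box, written CANNTG. Fly promoters fall into broad types: those of constitutive genes often carry the DNA replication-related element (DRE), bound by the factor DREF, or the element named Motif 1, while many developmental promoters carry GAGA elements, bound by GAGA factor, the product of Trl.

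The lines that follow give the summit with 50 bp to each side for the 8 members with the highest signal among those used for display, on build dm6, plus strand, 5′ to 3′, with every CANNTG in capitals. They are shown because the summit is where the signal peaks, and because they let the base content and the E-boxes be read directly. The windows of Lk6, amon, ph-p, larp, elav and chif hold 0 E-boxes, that of jp holds 1 and that of Atf3 holds 2. Over all 926 members 36.0% of such windows hold an E-box.
Lk6, chr3R:11761006-11761106: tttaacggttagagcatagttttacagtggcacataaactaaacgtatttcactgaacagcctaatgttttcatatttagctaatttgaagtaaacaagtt
amon, chr3R:26714328-26714428: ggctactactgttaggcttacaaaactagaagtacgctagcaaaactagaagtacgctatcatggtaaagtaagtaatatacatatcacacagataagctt
ph-p, chrX:2137246-2137346: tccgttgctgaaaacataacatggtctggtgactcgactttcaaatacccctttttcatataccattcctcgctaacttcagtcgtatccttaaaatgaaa
larp, chr3R:28326555-28326655: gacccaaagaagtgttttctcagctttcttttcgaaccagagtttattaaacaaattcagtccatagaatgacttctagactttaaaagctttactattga
elav, chrX:523436-523536: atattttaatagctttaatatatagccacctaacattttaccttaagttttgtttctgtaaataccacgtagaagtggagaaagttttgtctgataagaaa
chif, chr2L:16351198-16351298: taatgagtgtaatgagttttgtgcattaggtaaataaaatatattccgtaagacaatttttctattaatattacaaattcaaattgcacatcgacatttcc
jp, chr2L:9567457-9567557: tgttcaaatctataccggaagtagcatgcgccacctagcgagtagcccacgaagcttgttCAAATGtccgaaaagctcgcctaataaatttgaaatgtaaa
Atf3, chrX:1275464-1275564: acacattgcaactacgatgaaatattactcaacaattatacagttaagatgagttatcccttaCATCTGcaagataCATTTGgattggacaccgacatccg

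Examples of the other motifs that enter the comparisons are the strongest displayed members that hold them. In CG3009 the capitals mark the E-box CAGCTG, in Sarm the E-box CATATG, in CG9743 a run of GAGA elements (GAGAGA) and in CG11151 the DRE (TATCGATA).
CG3009, chrX:4666946-4667046: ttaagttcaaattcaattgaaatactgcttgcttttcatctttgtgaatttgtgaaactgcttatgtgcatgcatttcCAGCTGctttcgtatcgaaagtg
Sarm, chr3L:8096240-8096340: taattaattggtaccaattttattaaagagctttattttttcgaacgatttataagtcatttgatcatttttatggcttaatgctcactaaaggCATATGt
CG9743, chr3R:30203410-30203510: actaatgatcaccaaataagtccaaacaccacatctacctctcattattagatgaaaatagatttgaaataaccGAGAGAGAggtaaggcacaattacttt
CG11151, chrX:13739455-13739555: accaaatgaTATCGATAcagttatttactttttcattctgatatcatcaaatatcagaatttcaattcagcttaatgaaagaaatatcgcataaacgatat

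The promoters next to upstream summits differed in motif content from those with a summit on the promoter itself. The next lines give the 150 bp before the TSS, read 5′ to 3′ on the strand of the gene, for the 4 strongest displayed starts with an upstream summit, no core promoter summit at that start and a GAGA element there (both strands searched, capitals mark it). The gene larp has a core promoter summit at another start. After them stand the 2 strongest displayed genes with a summit within 200 bp of the TSS and a DRE there (capitals). All 4 GAGA examples and tank are minus-strand genes, and eEF1gamma is on the plus strand.
ph-p promoter, chrX:2136856-2137005: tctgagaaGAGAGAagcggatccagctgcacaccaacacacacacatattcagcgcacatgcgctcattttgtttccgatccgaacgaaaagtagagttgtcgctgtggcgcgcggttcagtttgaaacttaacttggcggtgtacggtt
larp promoter, chr3R:28326265-28326414: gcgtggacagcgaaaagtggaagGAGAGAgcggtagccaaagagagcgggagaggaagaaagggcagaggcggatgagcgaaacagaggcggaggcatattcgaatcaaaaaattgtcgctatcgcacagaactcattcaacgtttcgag
elav promoter, chrX:523227-523376: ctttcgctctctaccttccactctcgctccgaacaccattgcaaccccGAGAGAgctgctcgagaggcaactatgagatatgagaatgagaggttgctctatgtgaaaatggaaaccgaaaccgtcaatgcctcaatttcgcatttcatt
jp promoter, chr2L:9566751-9566900: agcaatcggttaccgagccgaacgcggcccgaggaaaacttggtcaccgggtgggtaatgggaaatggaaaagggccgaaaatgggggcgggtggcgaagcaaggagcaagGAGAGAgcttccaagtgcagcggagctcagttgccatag
tank promoter, chr2L:4838000-4838149: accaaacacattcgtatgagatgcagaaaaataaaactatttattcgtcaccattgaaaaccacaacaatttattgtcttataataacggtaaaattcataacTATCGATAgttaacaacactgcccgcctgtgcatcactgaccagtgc
eEF1gamma promoter, chr3R:29220022-29220171: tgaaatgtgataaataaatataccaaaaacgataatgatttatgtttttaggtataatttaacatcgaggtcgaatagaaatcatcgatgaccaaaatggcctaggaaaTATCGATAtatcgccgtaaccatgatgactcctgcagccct

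Upstream summits were denser than the genome at large, and their density fell steeply with distance. The 926 summits made 12.6% of the list (95% Clopper-Pearson interval 11.9 to 13.4), while the positions that meet the same rule made 6.21% of the bases, a ratio of 2.04. The corresponding ratio was 7.69 within 200 bp of a TSS (2898 summits, the core promoter summits), 0.748 at the same distances downstream (490 summits) and 0.516 over 1 kb away (3015 summits). The intervals cover counting error only. The upstream side thus held 1.12 summits per 10 kb of its bases and the downstream side 0.410 per 10 kb.

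Over 200 and up to 300 bp upstream there were 342 members, 2.62 per 10 kb. Past 300 and up to 400 bp there were 186 (1.56 per 10 kb), past that and up to 600 bp 211 (0.976 per 10 kb), then up to 800 bp 103 (0.537 per 10 kb), and up to 1000 bp 84 (0.491 per 10 kb). Beyond about 600 bp the density was thus close to the 0.548 per 10 kb of all summits over the whole genome. It stayed above the 0.283 per 10 kb of the bases over 1 kb from a coding TSS. Replicate 1 alone placed 953 (13%) and replicate 2 alone 969 (13.2%) of its own 7329 highest peaks in the same territory.

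**Figure D1:**
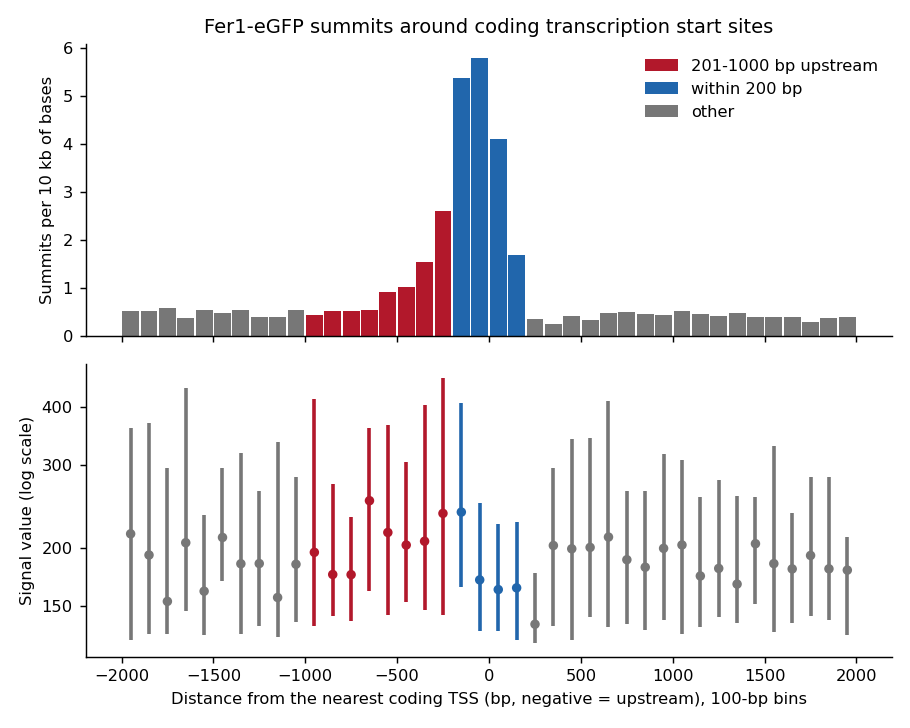
Summits per 10 kb of bases (upper panel) and the authors' signal value as median and quartiles on a log axis (lower panel), in 100-bp bins of distance from the nearest coding TSS. Beyond about 600 bp the upstream bins are near the 0.548 per 10 kb of all summits. Summits over 1 kb from any coding TSS stand at 0.283 per 10 kb. The last bin within 200 bp upstream (median 238.4) and the first one past it (236.9) have like medians.

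Upstream summits had higher signal values than the other position classes. The signal value is the authors' own per-peak number and is compared only within a list. Its median was 211.5 for upstream summits (quartiles 144.8 to 391.5) against 179.2 for core promoter summits (quartiles 136.9 to 269.4), 184.7 for downstream summits and 179.7 for summits over 1 kb away. In replicate 1's own list the medians were 125.3 upstream, 108.6 core, 114.0 downstream and 108.3 over 1 kb. In replicate 2's own list they were 90.2 upstream, 77.4 core, 75.8 downstream and 75.6 over 1 kb, so both replicates gave the same order of upstream above core. Of the upstream summits 59.1% were in the higher-signal 50% of the list, against 48.4% of core promoter summits. Among the 300 strongest peaks of the list 79 were upstream summits, which is 8.53% of all upstream summits, against 4.62% of the core promoter summits. Peaks are not replicates, so no test was made of these medians.

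The distance limits of 200 and 1000 bp fall within gradual changes. The 38 summits in the first 10 bp past 200 bp had a median signal of 212.4, and the 60 in the last 10 bp before it, just outside the class, 262.9. At the far limit the 3 summits in the last 10 bp had a median of 219.9, and the 4 in the 10 bp beyond it 190.3. Inside the core promoter class, the 808 summits over 100 and up to 200 bp upstream had a median of 238.4 and the 1032 within 100 bp upstream 170.7, so the high values began there. Within the upstream class the median was 236.9 up to 300 bp and 186.4 past 800 bp.

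Upstream summits were matched in both replicates about as often as the other classes, and the share depended on the overlap asked for. Of the 926, 530 (57.2%, interval 54.0 to 60.4) had a counterpart among the 7329 top peaks of each replicate, sharing at least 50% of both intervals. For core promoter summits the share was 55.6%, for downstream summits 51.2% and for those over 1 kb 52.1%. In the replicates' whole lists of 30000 peaks, 652 upstream summits (70.4%) were matched in both, 127 in replicate 1 alone, 24 in replicate 2 alone and 123 in neither. For core promoter summits the share in the whole lists was 72.8%. Among the 7329 highest peaks 800 of 926 (86.4%) were matched with 1 bp of overlap, and 159 (17.2%) with 80% of both intervals, where core promoter summits had 22.3%.

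Across the 652 matched members the signal values of the replicates had Spearman's rho 0.811, and Pearson's r 0.824 after a log10 transform. These are descriptions across peaks, which share the 2 libraries. The matched summits lay a median of 23 bp apart, and 498 of 652 (76.4%) lay within 50 bp of each other. Over those 498 the rho was 0.925. Replicate 1 values were a median of 1.47 times those of replicate 2, and 28 members (4.29%) were more than 3 times off that ratio. In those 28 the matched summits were a median of 160.5 bp apart, against 21.5 bp in the rest.

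**Figure D2:**
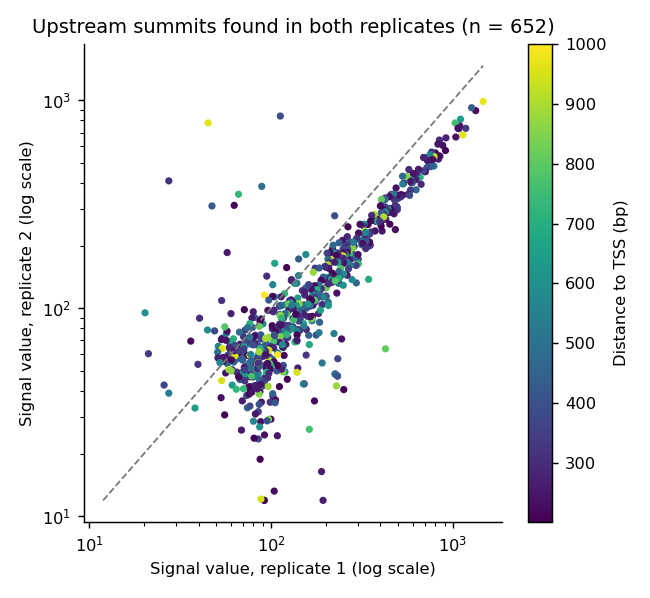
Signal value in replicate 1 (horizontal) against replicate 2 (vertical), both on log axes, for the 652 upstream summits matched in both whole lists, with colour for the distance to the TSS in bp and a dashed line of equal values. Most points lie along a band below the line, around a ratio of 1.47, and 28 lie more than 3 times off it.

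The strongest upstream summits stood near genes of many kinds. The highest, with a signal of 2466 and place 10 among all 7329 peaks, lay 977 bp upstream of an internal start of Lk6, which encodes a kinase that phosphorylates the translation factor eIF4E. It had 1467 in replicate 1 and 988.0 in replicate 2. The next was 219 bp upstream of amon, the proprotein convertase that processes neuropeptides, with 2188 in the thresholded list, 1335 in replicate 1 and 892.1 in replicate 2. Both replicates placed these summits among their 14 highest peaks.

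The Polycomb group gene ph-p had a summit 441 bp upstream of one of its starts with 2096 in the thresholded list, 1268 in replicate 1 and 921.4 in replicate 2. ph-p has a near-identical neighbour, ph-d, with a summit 844 bp upstream (977.6 in the thresholded list, 558.1 in replicate 1 and 430.2 in replicate 2), and the sources used here do not say how reads matching both were placed, so both values are uncertain. The RNA-binding protein gene larp followed with 1926 (1178 in replicate 1, 733.3 in replicate 2), HmgZ, which encodes an HMG-box chromosomal protein, with 1883 (1102 in replicate 1, 811.7 in replicate 2), and elav, the neuronal RNA-binding protein gene, with 1832 (1092 in replicate 1, 753.7 in replicate 2). The summits of ph-p, larp, HmgZ and elav were among the 36 highest of each replicate.

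Among the 25 strongest, several further genes encode transcription factors. They were Atf3 (signal 1793, 230 bp), Sox14 (1706, 241 bp), the FoxA gene fkh (1345, 223 bp) and gce, the bHLH-PAS receptor of juvenile hormone (1281, 512 bp). Signalling and RNA genes were also present: for, a cGMP-dependent protein kinase (1381, 341 bp), msi, the RNA-binding protein Musashi (1374, 267 bp), and chif, the activator of the replication kinase Cdc7 (1824, 965 bp). The other members were jp (1813, 757 bp), CG1888 (1791, 240 bp), cu (1569, 279 bp), aay (1493, 213 bp), CG3009 (1485, 296 bp), CG8036 (1481, 237 bp), Alp12 (1457, 247 bp), bves (1365, 221 bp), Sesn (1326, 338 bp), Reph (1316, 912 bp), CG4496 (1294, 560 bp) and E23 (1288, 224 bp). All 25 were matched in both replicates, none placed below 111 in replicate 1 or 120 in replicate 2. Of the 25, 14 were within 300 bp of the TSS, 14 lay in introns, 10 lay between genes, and 7 had a gene with a core promoter summit as well.

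Upstream summits were divided between the DNA before the outermost start and the interior of their own gene. By the annotation, 459 (49.6%) lay in introns, 394 (42.5%) between genes, 32 in non-coding exons, 23 in 3′ UTRs, 18 in 5′ UTRs and 0 in coding exons. A total of 402 (43.4%) were inside the gene whose TSS they were assigned to, upstream of an internal alternative start, and 524 (56.6%) were upstream of the outermost start. The density was 2.30 summits per 10 kb of the territory inside the own gene, 1.12 per 10 kb outside all genes and 0.367 per 10 kb inside another coding gene. The territory inside another coding gene was 33.2% of the bases that meet the rule and held 10.9% of the summits, with a median signal of 165.7 against 216.5 for the other upstream summits.

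Genes with several starts carried more of the upstream summits per base. The density was 1.83 summits per 10 kb of the territory of genes with more than 1 TSS and 0.620 per 10 kb of the territory of genes with a single one. Of the genes with an upstream summit 63.4% had more than 1 TSS, against 26.5% of all protein-coding genes. A divergent coding start lay within 1000 bp on the far side of 72 summits (7.78%), whose median signal was 177.2 against 214.7 for the rest. A TSS of a non-coding gene lay within 200 bp of 29 summits, among them 5 of tRNA genes and 4 of snoRNA genes. In all, 92 members (9.94%) shared their interval with another summit, and their median signal was 361.8 against 201.2 for the rest. Those extra summits are separate positions in 1 peak, not separate peaks.

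Upstream summits belonged to 782 of the 13945 protein-coding genes, 5.61% of all genes. Of the 13945, 2995 had no base that meets the rule, so they could not have an upstream summit. They are counted in the 5.61%, and the shares of gene lists set beside it are not adjusted for territory. Of these, 665 had 1 upstream summit, 96 had 2, 16 had 3, 4 had 4 and 1 had 5. The gene with 5 was Rtnl1, a reticulon that shapes the endoplasmic reticulum, with signals of 1216, 1157, 258.9, 162.8 and 115.3 at 5 of its alternative starts. The genes with 4 were dnc, the cAMP phosphodiesterase (1219, 1076, 442.8 and 127.1), the nesprin gene Msp300 (899.3, 803.2, 689.7 and 148.6), Moe, the ERM protein moesin (412.9, 270.2, 261.8 and 178.1), and Kank (565.0, 166.6, 137.4 and 123.7). In Rtnl1 and dnc the highest signal was far above the lowest, while in Moe the 4 signals lay closer together.

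A core promoter summit accompanied 305 of the 926 upstream summits (32.9%, interval 29.9 to 36.1) at the same gene, which need not be at the same start. By gene, 244 of 782 had both and 538 had an upstream summit alone. Core promoter summits were found at 2709 genes (19.4%), of which 9.01% also had an upstream one. Upstream summits whose gene also had a core promoter summit had a median signal of 201.1 against 216.5 for those whose gene had none.

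Gene lists differed widely in the share of genes with an upstream summit. Among signalling genes, 6 of 18 EGF receptor pathway genes had one (33.3%), against 5.61% of all protein-coding genes, and their territory held 6.19 summits per 10 kb against 1.12 for all genes. They included the ligand gene spi (3 summits, the highest at 380.5), the secreted inhibitor gene aos (563.4), the intracellular inhibitor gene sty (354.4) and RasGAP1, which turns Ras off (632.4). Of the Notch pathway genes 4 of 16 had one: the receptor gene N (156.9), the coactivator gene mam (173.7), the ubiquitin ligase gene neur (491.5) and the gamma-secretase subunit gene aph-1 (297.0). Of the Dpp pathway genes 4 of 16 had one: the signal transducer gene Mad (363.2), its inhibitor gene Dad (142.8), the repressor gene brk (417.8) and shn (114.9), a DNA-binding partner. Of the Wingless and Hedgehog list 1 of 19 had one, the receptor gene fz2 (121.5), a share of 5.26% that is close to that of all genes. Core promoter summits were frequent in most of these lists too: 10 of 18 EGF receptor (55.6%), 8 of 16 Notch (50%), 4 of 16 Dpp (25%) and 8 of 19 Wingless and Hedgehog genes (42.1%) had one, against 19.4% of all genes. The lists are small: the interval for 6 of 18 ran from 13.3 to 59.0%.

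Among transcription factor genes, 6 of 53 bHLH genes (11.3%) had an upstream summit. The strongest were gce (1281), the tracheal regulator gene trh (952.3), E(spl)m3-HLH, a Notch target (404.0), and tai, a nuclear receptor coactivator gene (205.0). Of the nuclear receptor genes 4 of 21 had one: Hr51 (549.4), Hr38 (371.7), Hnf4 (369.7, the highest of 3) and ftz-f1 (258.0). Of the Polycomb and trithorax list 3 of 30 had one (ph-p, ph-d and jing) and 15 of 30 a core promoter summit. The intervals for an upstream summit held the 5.61% of all genes in these lists. They were 4.27 to 23.0% for bHLH, 5.45 to 41.9% for nuclear receptor and 2.11 to 26.5% for Polycomb and trithorax genes. Of the insulator and promoter factors 1 of 18 had one, Trl, the GAGA factor gene (158.9), a share of 5.56% against 5.61% of all genes. Segmentation genes had 0 of 20 (upper limit 16.8%) and Hox genes 0 of 8 (upper limit 36.9%), limits well above the share of all genes. Both lists had 0 core promoter summits too.

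Glycolysis and clock genes had shares near that of the EGF receptor list. Neuronal and cell cycle genes had lower shares, with intervals that held the 5.61% of all genes. Of the glycolysis genes 4 of 13 (30.8%) had an upstream summit, namely Ldh (860.2), Pgk (460.3), PyK (275.2) and Tpi (133.3), and 9 of 13 had a core promoter summit. Of the circadian clock genes 3 of 10 (30%) had one, the bZIP genes Pdp1 (329.7) and vri (319.7) and the kinase gene dco (114.6), and 1 of 10 had a core promoter summit. Of the neuronal genes 4 of 24 (16.7%) had one: elav (1832), cpo (736.0), Syx1A (292.5) and comt (240.8). Among neuropeptide processing genes amon and IA-2 had one (2 of 9), among glial genes loco and pnt (2 of 10), and among cell cycle genes 4 of 29 (13.8%), led by Dp (858.2), the partner of E2F, and CycE (388.0).

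Ribosomal protein genes had core promoter summits alone. For all coding genes the upstream share was 5.61% and the core promoter share 19.4%. Of 85 cytoplasmic ribosomal protein genes 0 had an upstream summit (upper limit 4.25%) while 74 had a core promoter summit. Their territory was short, a median of 115 bp per gene meeting the rule, against 800 bp for all coding genes. Mitochondrial ribosomal protein genes had 0 of 73 upstream and 19 of 73 core, with a median territory of 0 bp, and autophagy genes 0 of 20 upstream and 9 of 20 core, with a median of 11 bp. Translation factor genes had 1 of 52 upstream (eIF2beta, 226.1) and 21 of 52 core, and the secretory pathway 1 of 31 upstream (Cnx99A, 188.0) and 13 of 31 core. Heat shock and chaperone genes had 2 of 19 upstream (10.5%; Hsp22, 339.6, and Hsc70-3, 110.5) and 12 of 19 core. The upstream intervals of the autophagy (0 to 16.8%) and translation factor lists (0.0487 to 10.3%) held the 5.61%. So did those of the secretory pathway (0.0816 to 16.7%) and heat shock lists (1.30 to 33.1%). The part of short territory in the counts of ribosomal protein and autophagy genes was not tested. Chemosensory genes had 1 of 230 upstream (Obp83g, 146.7) and cuticle and Osiris genes 2 of 118 (Cpr65Av, 136.4, and Cpr67Fb, 125.6), with a median territory of 800 bp in both lists and 0 core promoter summits. The upstream interval of the cuticle and Osiris list (0.206 to 5.99%) held the 5.61%, and that of the chemosensory list (0.0110 to 2.40%) lay below it.

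Not all these summits had a counterpart in the replicates' whole lists, at 50% of both intervals. Of the highest summits of the 51 genes taken from the lists (up to 4 per list), 30 were matched in both replicates. A further 10 were matched in replicate 1 alone, those of Hr38, Hsc70-3, IA-2, N, Pdp1, aos, aph-1, dco, eIF2beta and fzr, and 2 in replicate 2 alone, those of loco and neur. The remaining 9, of Cpr67Fb, E(spl)m3-HLH, Hnf4, PyK, brk, comt, ftz-f1, jing and tai, were matched in neither. By the same rule 652 of all 926 upstream summits (70.4%) were matched in both replicates and 123 in neither.

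**Figure D3:**
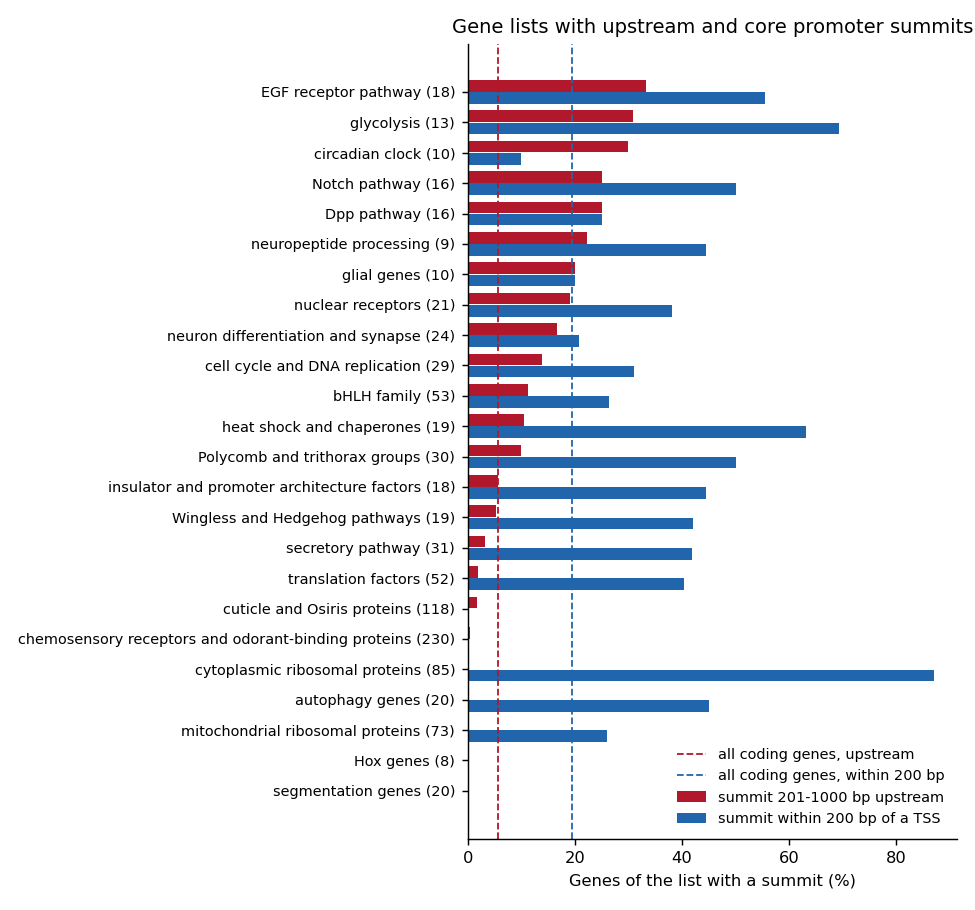
Share of the genes in each list (number of genes in brackets) with a summit over 200 and up to 1000 bp upstream (red, upper bar) and within 200 bp of a TSS (blue, lower bar), with dashed lines for all protein-coding genes at 5.61% and 19.4%. EGF receptor pathway genes have the highest upstream share, and cytoplasmic ribosomal protein genes the highest core promoter share with 0 upstream.

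The DNA under upstream summits was rich in A and T. Windows of 50 bp to each side held 34.3% G or C at upstream summits, against 40.7% in equal windows 400 bp farther from the TSS, 39.8% at core promoter summits and 40.0% in 72058 upstream windows with no summit within 500 bp. Summits over 1 kb away had 34.6%. The content went with signal: in the 232 members with the lowest signal it was 36.9%, and in the 232 with the highest 31.0%. Each of the 2080 strand-symmetric hexamers was then tested for presence at the summit against the flank by an exact McNemar test with Benjamini-Hochberg adjustment over all hexamers. At an adjusted p under 0.05, 76 (3.65%) were more frequent at the summit and 64 (3.08%) less frequent. The counts were 236 and 356 with the control 400 bp towards the TSS, 152 and 167 with 100 bp to each side and 39 and 16 with 25 bp, so the balance of higher to lower depended on these choices. These p-values compare peaks of the same libraries, so differences from one embryo collection to another are not part of them.

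The leading hexamers at the summit were made of A and T alone. AAATAT was in 36.0% of summit windows and 18.3% of flanking windows (adjusted p 2.35e-13), and TAAATA in 29.3% and 16.6% (1.22e-07). AAAATA was in 36.3% and 22.7%, ATTTTA in 29.8% and 17.4%, TTTAAA in 21.7% and 11%, and TTAAAA in 31.2% and 19.7%. The leading hexamers on the lower side were GCCGCC (1.40% against 5.08%, adjusted p 0.000559), CAGCCG (0.756% against 3.89%), GCAGCC (1.94% against 5.72%), ACCCAA (2.70% against 6.91%), CCGGAG (0.216% against 2.38%) and GGCCCA (1.19% against 4.32%). Of the 36 hexamers with no G or C, 28 were higher at the summit and 0 lower, and of the 192 with 1 G or C 39 were higher and 0 lower. TATAAA, the core of the TATA box, was in 22.6% of summit windows, 14.1% of flanking windows (adjusted p 0.000485) and 14.6% of windows with no summit. Whether it stood out beyond the base content was not tested.

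The E-box was not more frequent at upstream summits. CANNTG was in 333 of 926 summit windows (36.0%, interval 32.9 to 39.1) against 378 flanking windows (40.8%), 39.1% of windows with no summit, 37.4% of core promoter summit windows and 38.1% of those over 1 kb away. The difference from the flank, -4.86 percentage points, had an exact McNemar p of 0.0352, two-sided. It was lost in replicate 2's own list (-3.20 points, exact McNemar p 0.155), with 1 summit per distinct interval (-4.24 points, 0.0722) and with the flank taken 400 bp towards the TSS (-3.89 points, 0.0906). The summit windows held 34.3% G or C and the flanking windows 40.7%. Whether the E-box share differed beyond this base content was not tested. E-boxes were in 40.9% of the 232 windows lowest in signal and 28.4% of the 232 highest, alongside the base content. Of the members, 593 had 0 E-boxes, 262 had 1, and 56 had 2.

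Of the 10 E-box forms none passed the test against the flank: adjusted p-values ran from 0.271 for CACATG to 1 for CAGATG. The form CATATG, in 5.51% of upstream and 4.21% of flanking windows (adjusted p 0.512), was more frequent than at core promoter summits (2.48%, Fisher's exact test, adjusted p 0.000522). CAGCTG, in 4.64% of upstream and 3.78% of flanking windows (adjusted p 0.698), was less frequent than at core promoter summits (8.21%, adjusted p 0.00292). Of the 492 hexamers with 2 G or C, as in CATATG, 51 were more frequent than at core promoter summits and 17 less. Of the 492 with 4, as in CAGCTG, 2 were more frequent and 105 less. Whether these 2 forms differed beyond the base content was not tested. In windows with no summit CATATG stood in 3.18% and CAGCTG in 3.90%. The remaining forms passed neither test: at upstream summits and in the flank CAATTG stood in 3.46% and 4.97%, CAAGTG in 5.62% and 7.24%, CACGTG in 0.972% and 1.73%, CACCTG in 2.27% and 3.13%, CAAATG in 9.83% and 11.3%, CAACTG in 4.64% and 5.72%, CACATG in 3.89% and 5.83%, and CAGATG in 3.24% and 3.46%.

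Against core promoter summits 185 hexamers (8.89%) were more frequent at upstream summits and 252 (12.1%) less frequent. The hexamer lead on the higher side was again AAATAT (36.0% upstream against 24.7% core, adjusted p 3.26e-08), followed by ATGATA (9.50% against 3.76%), ATCATA (9.61% against 4%), ACATAT (16.1% against 8.83%), TACATA (14.5% against 8.18%) and ATTTTA (29.8% against 21.0%). On the lower side the lead was held by 2 pieces of the DRE and a hexamer that overlaps it by all but its last base. TATCGA was in 3.67% of upstream and 12.4% of core promoter windows (adjusted p 2.52e-13), the overlapping CGATAG in 2.70% and 9.97%, and ATCGAT in 3.13% and 9.94%. Then came ACACTG (4.32% and 10.6%), CGTTGC (1.84% and 6.04%) and GCTGCC (2.92% and 7.66%). The whole DRE, TATCGATA, was in 4 upstream windows (0.432%) against 122 core promoter windows (4.21%) and 0.307% of windows with no summit, and Motif 1, GGTCACAC, in 4 upstream windows against 105 (3.62%) and 0.148%.

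Set against summits over 1 kb from any coding TSS, 0 of 2080 hexamers differed after adjustment in either direction (0% and 0%), with 74 higher and 41 lower at an unadjusted p under 0.05 by Fisher's exact test. Against downstream summits 14 were more frequent (0.673%) and 8 less frequent (0.385%). The list of hexamers that separated upstream from core promoter summits shrank to 18 higher and 37 lower in the higher-signal 50% of the peaks, where there were also fewer peaks to compare.

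Further motifs searched on both strands gave no call against the flank. The GATA site AGATAA was in 8.10% of upstream summit windows, 6.05% of flanking windows (adjusted p 0.328) and 6.45% of windows with no summit, the site TGGGAA of Suppressor of Hairless type in 5.08%, 5.94% (0.769) and 6.05%, and the Zelda site CAGGTA in 1.73%, 2.16% (0.861) and 2.29%. The Grainy head site AACCGG was in 1.84%, 1.84% (1) and 2.01%, the CA repeat CACACA in 7.02%, 9.61% (0.251) and 7.31%, and the A run AAAAAA in 25.1%, 20.1% (0.114) and 19.3%. None of these passed the test, and the largest difference from the flank was that of the A run, 4.97 points.

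GAGA elements were more frequent beside upstream summits than under them. GAGAGA was in 5.83% of summit windows, 6.91% of windows 400 bp farther out (adjusted p 0.683), 4.73% of core promoter summit windows (adjusted p 0.377) and 3.51% of windows with no summit. In bins of 50 bp, 2.92% of members had one at the summit, 9.61% at 150 bp towards the TSS and 7.34% at 150 bp away from it. These flanking windows were chosen after that profile was seen. In a window centred 150 bp towards the TSS, with 50 bp to each side, GAGAGA was present at 15.4% of members against 5.83% at the summit (exact McNemar test, adjusted p 3.44e-09), where 9.66% of hexamers were higher and 8.08% lower. Centred 150 bp away from the TSS it was present at 10.8% against 5.83% (adjusted p 0.00506), where 3.8% of hexamers were higher and 3.75% lower. At 250 bp away from the TSS the difference was 1.62 points (adjusted p 0.462). The G or C content was 33.8% in the bin at the summit and 43.0% in that 150 bp towards the TSS. Whether the GAGA shares differed beyond the base content was not tested. The other classes also had a lower share in the bin at the summit than 100 bp to either side. For core promoter summits it was 2.45% at the summit and 4.42% and 3.66% beside it. For downstream summits it was 3.06%, with 5.92% and 6.53% beside it. Over 1 kb away it was 2.45%, with 4.71% and 4.21%. These differences in the other classes were not tested.

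Between 100 and 250 bp on either side, 287 upstream summits (31.0%, interval 28.0 to 34.1) had a GAGA element, against 16.5% of core promoter summits, 25.3% of downstream summits and 19.4% of those over 1 kb away. The interval for downstream summits, 21.5 to 29.4%, overlapped that for upstream summits. By side, the upstream share was 20.7% towards the TSS and 14.8% away from it. Downstream summits had 14.3% and 14.7% by side, so the upstream lead over them lay on the side of the TSS. A GAGA element was present on both sides of 42 members. Members with such an element had a median signal of 250.4 and those without 199.1. For core promoter summits the medians were 184.2 and 178.5. The TSS itself is farther off in the 398 members over 400 bp from it. There the share per bin was 2.51% at the summit and 6.78% at 150 bp away from the TSS. Towards the TSS it was 4.02% at 100 bp, 5.28% at 150 bp, 6.78% at 200 bp and 4.77% at 250 bp. At 400 bp towards the TSS it was 9.55%.

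**Figure D4:**
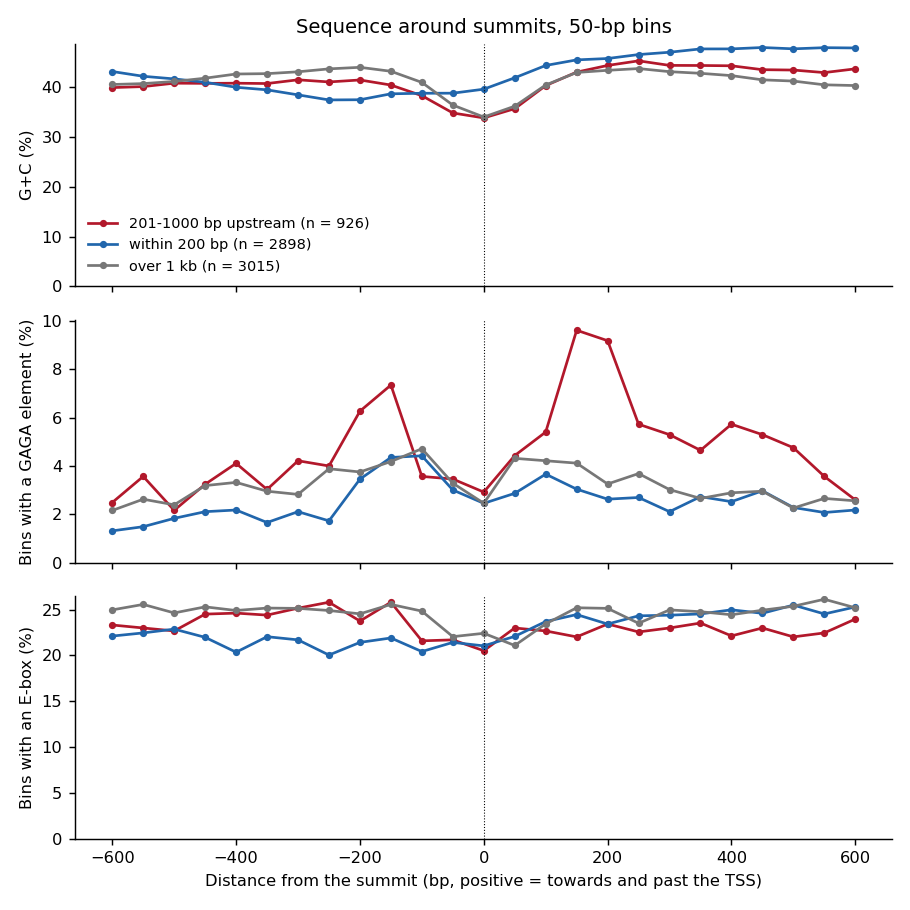
G or C content, share of bins with a GAGA element and share of bins with an E-box, in 50-bp bins from 600 bp on the far side of the summit to 600 bp towards and past the TSS, for upstream (red), core promoter (blue) and over-1-kb summits (grey). Upstream summits sit in a dip of G or C content with GAGA elements at 9.61% and 7.34% of members 150 bp to either side, while the E-box share has no peak at the summit.

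GAGA elements were also more frequent in the promoters next to upstream summits. The comparison was chosen after the profile was seen and takes the 150 bp before the TSS, which does not overlap the windows at the upstream summits. For the 528 members up to 400 bp from the TSS it can overlap the stretch 100 to 250 bp towards the TSS. The same elements can therefore enter both results. Of 755 TSSs with an upstream summit and no core promoter summit, 187 (24.8%, interval 21.7 to 28.0) had GAGAGA there, against 275 of 2739 TSSs with a core promoter summit alone (10.0%; Fisher's exact test, adjusted p 1.10e-20). The share was 14.6% for TSSs with a downstream summit and 8.11% for the 15653 with neither an upstream nor a core promoter summit. Of the 2080 hexamers 285 (13.7%) were more frequent and 239 (11.5%) less frequent than at promoters with a core promoter summit. The leading ones were AGAGAG (28.6% against 12.6%), GAGAGA itself, GAGAGC (26.6% against 11.8%), AGAGCG (25.6% against 12.4%), CGTCGC (13.6% against 5.37%) and CGAGAG (17.0% against 7.70%).

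On the other side of that comparison stood the same 3 hexamers in and next to the DRE, and hexamers of A and T. TATCGA was in 6.36% of the promoters with an upstream summit alone against 27.4% of those with a core promoter summit alone (adjusted p 8.53e-38), followed by CGATAG (4.77% against 21.6%), ATCGAT (5.83% against 22.3%), AAAATA (22.8% against 43.3%), AATTTA (11.7% against 27.2%) and AAATAT (18.1% against 35.4%). Many core promoter summits lie within these promoters, so the base content under them enters the comparison. The whole DRE was in 12 promoters with an upstream summit (1.59%), against 10.2% with a core promoter summit and 5.06% with neither. Motif 1 was in 13 (1.72%), against 6.10% and 2.53%. The G or C content was 46.7% with an upstream summit, against 40.4% with a core promoter summit and 40.3% with neither. TSSs with both kinds of summit, 106 in all, had GAGA elements in 18.9% and the DRE in 6.60%. When upstream summits within 400 bp were not counted, GAGAGA was in 23.8% of TSSs with an upstream summit against 10.1% with a core promoter summit (adjusted p 6.48e-09). Some of those TSSs also had a nearer upstream summit, and the share was 21.1% of the 294 that had none. Against TSSs with neither kind of summit the difference was 16.7 points (adjusted p 6.75e-38).

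**Figure D5:**
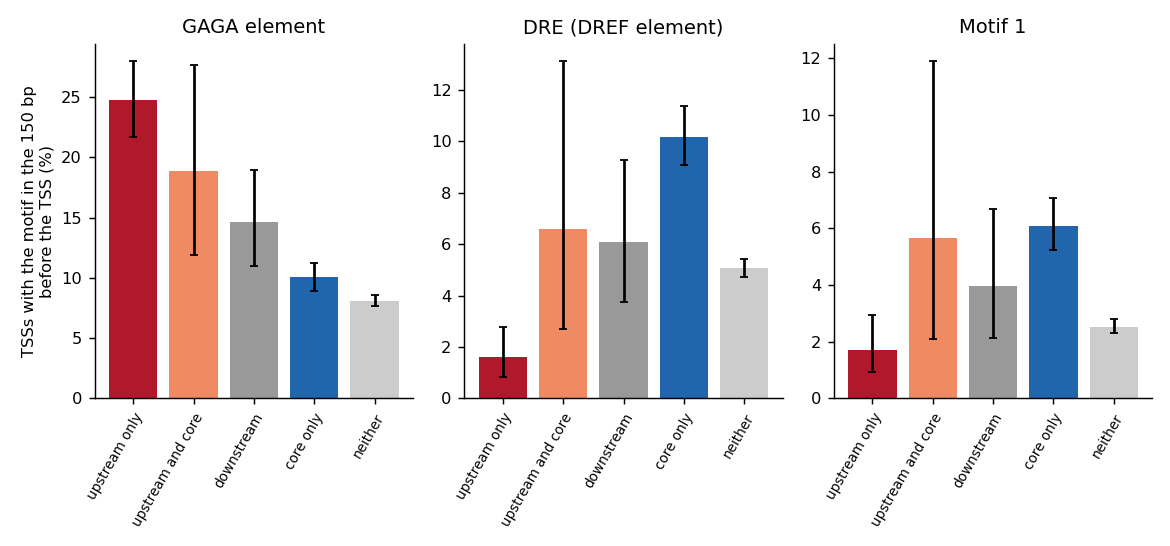
Share of TSSs with a GAGA element, a DRE and Motif 1 in the 150 bp before the TSS, for TSSs with an upstream summit only (n = 755), both an upstream and a core promoter summit (106), a downstream summit (328), a core promoter summit only (2739) and neither an upstream nor a core promoter summit (15653). Error bars are 95% Clopper-Pearson intervals; GAGA elements are at 24.8% with an upstream summit only and 10.0% with a core promoter summit only, the DRE at 1.59% and 10.2%.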

How the data were processed

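Anti-GFP ChIP-seq peaks of 2 biological replicates of Fer1-eGFP embryos were analysed. The authors deposited a thresholded peak list on build dm6, and a list of 30000 peaks per replicate, each peak with a signal value and a summit offset, per the file headers and the labels. Sources used here do not name the aligner, peak caller or threshold value, which are not given. The antibody is written as Fer1 in one label and as anti-GFP in another. Counts of reads were not used, and the precision rests on the number of peaks. Replicates share 1 group, so no contrast between conditions was possible.

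Summits were placed against the nearest of 19253 distinct TSSs of 13945 protein-coding genes (Ensembl release 115, Release 6 assembly, the same sequence as dm6). All bases without N on 6 chromosome arms were classed by the same rule. Peaks matched a replicate list where they overlapped over at least 50% of both intervals, and the nearest summit was taken. Windows were 50 bp to each side, and control windows lay 400 bp farther from the TSS. Presence of hexamers and motifs on either strand was compared by exact McNemar tests within peaks and Fisher's exact tests between classes, with Benjamini-Hochberg adjustment over 2080 hexamers. Python 3.11.15, NumPy 2.4.6, pandas 2.3.3, SciPy 1.17.1 and matplotlib 3.10.9 were used. The tests were tested on simulated data: with hexamers planted in 5% of windows the paired test called 7 of 10 and 6 of 10 in the right direction, the unpaired test 10 of 10, and both called 0 with nothing planted. They also called 1 and 6 hexamers that were not planted, and 27 and 71 with 10% planted. Each of these shared 4 bases with a planted one. Both sets of simulated windows were drawn with the same base content. The real sets differ in it, so the simulation does not cover calls that follow base content.

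Named genes were those of the 25 strongest members, the 6 genes with most members and up to 4 genes of each of 24 lists by signal. For 6 listed symbols the annotation has another spelling or none: 4 matched through synonyms and 2 were left out. Displayed windows were the strongest outside 1 chromosome arm and outside UTRs. The members and lists were chosen with earlier results of these data known. Alternatives were another TSS set, the higher-signal 50%, 1 summit per interval, the interval middle, other windows and control positions, and each replicate's own list.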

Additional observations from a re-analysis of the deposited data

How the results depend on the processing

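The share of summits that were upstream was 13.3% with the TSSs of all genes, 14.9% in the higher-signal 50% of the list, 12.2% with 1 summit per distinct interval and 12.9% with the interval middle, and 13 to 13.2% when either replicate was left out. The share of coding genes was 3.54% in the higher-signal 50%, where fewer peaks were used, 5.49% with 1 summit per interval and 5.73 to 5.87% without a replicate. The share whose gene also had a core promoter summit was 17.9% in the higher-signal 50%, with fewer core promoter summits to find, 30.6% with 1 summit per interval and 31.1 to 32.5% without a replicate. The ratio of the upstream to the core median signal was 1.18, against 1.26 in the higher-signal 50% and 1.15 to 1.17 without a replicate. Protein-coding transcripts alone gave the values of the report. The share found in both replicates was 86.4% with 1 bp of overlap, 17.2% with 80% and 70.4% with the whole lists, as the overlap rule sets.

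Hexamers higher and lower than the flank numbered 39 and 16 with 25 bp windows, 152 and 167 with 100 bp windows, 236 and 356 with the control towards the TSS, and 111 and 127 with the control 1 kb away. Without a replicate they ran from 77 to 104 higher and from 68 to 97 lower, the high ends in replicate 2's own list, whose 97 lower hexamers compare with 64 in the thresholded list. The E-box difference was -3.89 points (exact McNemar p 0.0906) with the control towards the TSS, -4.24 points (0.0722) with 1 summit per interval and -4.83 to -3.20 points without a replicate. The cause was not tested. Hexamers more and less frequent than at core promoter summits numbered 74 and 86 with 25 bp windows, 299 and 380 with 100 bp windows, 14 and 8 against downstream summits, 0 and 0 against summits over 1 kb away, 18 and 37 in the higher-signal 50%, and 182 to 194 and 242 to 289 without a replicate. The longer windows hold more hexamers each. GAGAGA beside the summit kept its direction and its call with windows at 200 bp and in each replicate's own list, and at 250 bp the call held on the side of the TSS but not on the other (1.62 points, adjusted p 0.462). GAGAGA and TATCGA at promoters kept direction and call under all 5 alternatives run. These windows and promoters were chosen after the data were seen. No paired analysis was possible because the samples form 1 group. Unknown depth limits every absence: a summit below the threshold cannot be told from none.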
